A study of Rattus norvegicus with 6 samples.

Results

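The enzymes that carry sulfur from methionine to cysteine, taurine and glutathione were followed at the RNA level in rat kidney. The 10 genes were taken as a named list (Mat2a, Ahcy, Mtr, Cbs, Cth, Cdo1, Csad, Gclc, Gclm and Gss), chosen by pathway with earlier results of these data known. The rule set no threshold on their values. All 10 were found among the 17051 genes measured, and all 10 were among the 11553 genes that reached a count of 30 in 1 rat or more, which were tested. The kidneys came from 6 male Sprague Dawley rats in 2 groups of 3, examined after 7 days of diet. The AL group (rats 61, 71 and 88) ate standard chow freely. The HD group (rats 64, 67 and 69) ate chow powder with a mixture of amino acids in the proportions of hemoglobin, at 3 g per kg per day, which the labels call a hyperammonemic diet. Each rat gave 1 library of poly(A)-selected RNA from kidney tissue, so fewer cells of a type and less RNA per cell cannot be told apart in these values. The mixture holds many amino acids, so the HD group is not a model of ammonia alone.

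Methionine is converted to S-adenosylmethionine, the methyl donor of the cell, by Mat2a, and the product left after methyl transfer is split to homocysteine by Ahcy. Homocysteine either returns to methionine through Mtr or enters transsulfuration, in which Cbs and Cth make cysteine. Cysteine is oxidized by Cdo1 and led towards taurine by Csad, or it is joined to glutamate by glutamate-cysteine ligase, made of the catalytic subunit Gclc and the modifier subunit Gclm, and completed to glutathione by Gss. The proximal tubule of the kidney is known for a rapid turnover of glutathione and for a strong expression of the ligase.

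No enzyme of the list passed the threshold after adjustment over all genes, nor did any of the 11553 genes tested in edgeR (0%). The differences between the diets are therefore given as values. Gclc and Gclm, the ligase of the first step of glutathione synthesis, were 0.40 and 0.42 higher on the log2 scale, with every HD rat above every AL rat in the normalized counts, and Gss, the second step, differed by 0.02 with groups that overlapped. In levels scaled by transcript length, Gclm stayed without overlap and Gclc did not. Csad, the last enzyme of the taurine branch in the list, differed by 0.65, the largest value of the 10. Without HD rat 67 it differed by 0.28, less than Gclm, Gclc and Ahcy did. Cbs, the entry to transsulfuration, was 0.25 higher. Counts scaled to library size, with a factor for library composition from the trimmed mean of M values (TMM), are written CPM, and the test was edgeR's quasi-likelihood test, with an adjusted P of at most 0.05 as threshold.

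The bases before the annotated starts of the 3 glutathione genes are printed because they make the enzymes of the 2 steps that the results turn on. They are the 250 bases upstream in the RefSeq annotation of build GRCr8, written 5′ to 3′ on the gene's strand, and capitals mark a match to the core of the antioxidant response element, the site through which electrophile-responsive factors are known to act on glutathione genes. Gclm lies at chr2:213031885-213032134 on the plus strand, Gclc at chr8:87510226-87510475 on the plus strand and Gss at chr3:164538307-164538556 on the minus strand.
Gclm: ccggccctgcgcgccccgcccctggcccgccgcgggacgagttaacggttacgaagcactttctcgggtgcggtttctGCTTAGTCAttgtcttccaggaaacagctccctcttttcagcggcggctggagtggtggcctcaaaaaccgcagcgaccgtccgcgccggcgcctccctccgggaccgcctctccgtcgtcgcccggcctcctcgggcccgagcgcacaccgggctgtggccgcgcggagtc
Gclc: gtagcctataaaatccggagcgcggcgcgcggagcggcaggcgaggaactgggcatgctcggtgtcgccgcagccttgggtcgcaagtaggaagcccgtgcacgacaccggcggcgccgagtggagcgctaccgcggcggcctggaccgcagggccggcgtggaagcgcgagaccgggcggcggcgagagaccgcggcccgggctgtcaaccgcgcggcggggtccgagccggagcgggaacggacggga
Gss: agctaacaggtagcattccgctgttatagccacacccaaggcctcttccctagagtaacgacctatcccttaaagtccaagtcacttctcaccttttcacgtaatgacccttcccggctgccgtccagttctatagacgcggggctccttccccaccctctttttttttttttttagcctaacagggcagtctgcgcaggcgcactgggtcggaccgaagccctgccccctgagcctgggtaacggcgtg
The core was searched as TGACNNNGC on both strands of the 300 bases from 250 before to 50 after each start. Sites outside that window were not searched, so a gene without a match here may still hold the site further away. Among the 9 members with a RefSeq promoter it was found in 1, Gclm, where the opposite strand holds it, and it was present in 12.1% of the 33469 promoters in the table and in 14.8% of the 8522 that belong to tested genes. The core of the amino acid response element, searched as TGATGNAA, was found in 0 of the 9 members and in 3.98% of all promoters and 1.82% of those of tested genes. Cdo1 had no promoter to match. The 250 bases upstream of Gclm and Gclc were rich in G and C (70.4% and 74.8%, with 34 and 43 CpG sites), and those of Gss held 55.2% with 13 CpG sites.

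Gclc, the catalytic subunit, reached 9333, 9114 and 9151 CPM in AL rats 61, 71 and 88, and 14362, 12227 and 9729 CPM in HD rats 64, 67 and 69. The AL rats lay within a narrow band and the HD rats were spread above it, with rat 69 close to the AL level. The group means were 9199 ± 118 (SD, n = 3) and 12106 ± 2319 CPM, a log2 fold change of 0.40 with a standard error of 0.19 and a 95% interval of -0.05 to 0.84 (edgeR adjusted P = 0.513, DESeq2 adjusted P = 0.281). It was 0.26 without HD rat 64. On the rn5 build used for the files, Gclc is read from 16 exons at chr8:84627768-84666187 on the plus strand.

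Gclm, the modifier subunit, which raises the activity of the catalytic one, was at 1610, 1378 and 1489 CPM in the AL rats and at 2317, 2022 and 1664 CPM in the HD rats, in the same order of rats as before. Every HD rat was above every AL rat, and rat 64 was again the highest and rat 69 the lowest of its group. The log2 fold change was 0.42 (SE 0.16, 95% interval 0.05 to 0.80), with an edgeR adjusted P = 0.426 and a DESeq2 adjusted P = 0.205, the lowest of the 10 members in each tool. Gclm has 7 exons at chr2:243862903-243883276 on the plus strand of rn5.

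Gss, which adds glycine to complete glutathione, was at 1425, 1254 and 1397 CPM in the AL rats and at 1539, 1151 and 1446 CPM in the HD rats. The groups overlapped, with HD rat 67 the lowest of all 6 and HD rat 64 the highest. The log2 fold change was 0.02 (SE 0.15, 95% interval -0.33 to 0.38), which leaves room for a difference of up to 0.38 and does not show that the gene stayed level. Gss lies at chr3:157443739-157474042 on the minus strand of rn5, with 13 exons.

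**Figure D1:**
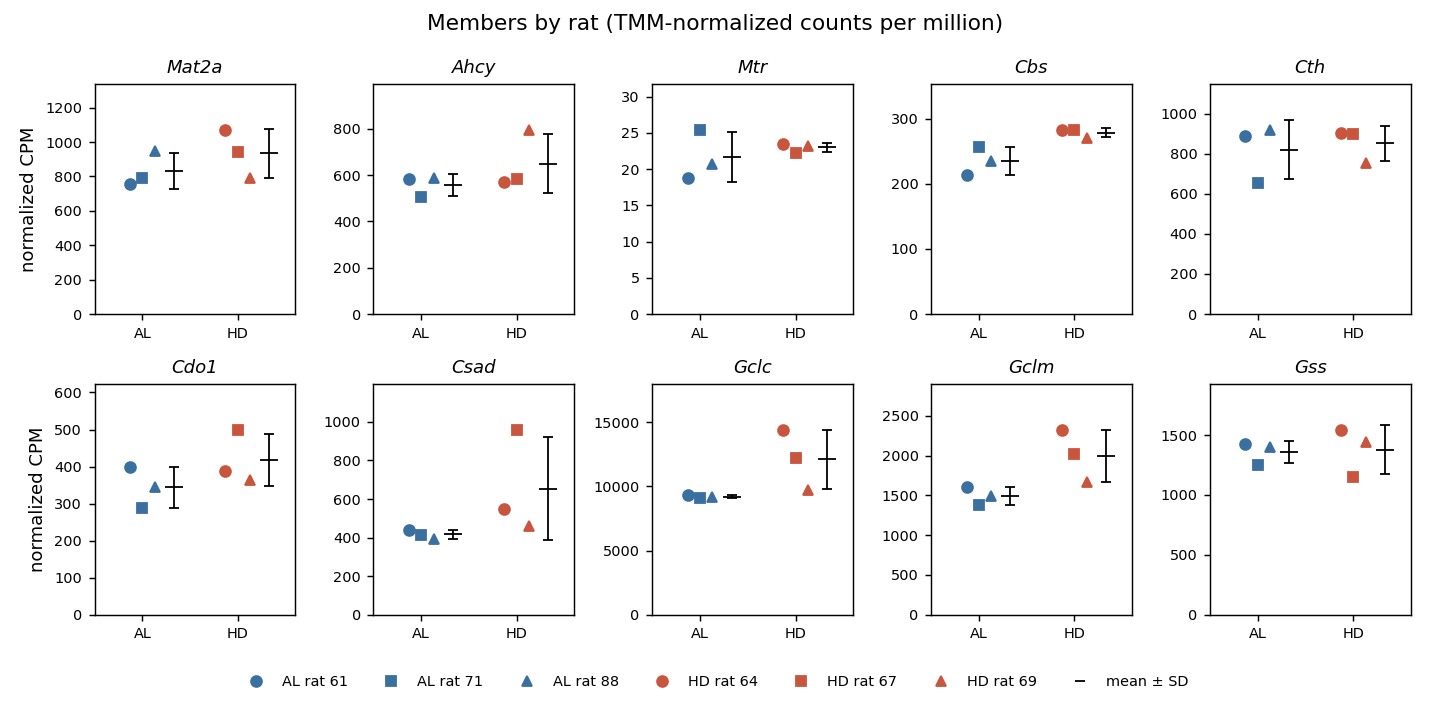
Normalized CPM (y axis of each panel, from 0) of the 10 members in the 3 AL rats and the 3 HD rats, 1 marker per rat, with the mean and SD of each group in black. The HD rats lie above the AL rats without overlap for Cbs, Csad, Gclc and Gclm, and the groups overlap for the other 6 members.

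Csad, cysteine sulfinic acid decarboxylase, which makes hypotaurine, was at 439, 416 and 394 CPM in the AL rats and at 548, 956 and 460 CPM in HD rats 64, 67 and 69. All HD rats were above the AL rats, but rat 67 stood far above its group. The log2 fold change was 0.65 (SE 0.26, 95% interval 0.04 to 1.27, edgeR adjusted P = 0.455, DESeq2 adjusted P = 0.230), and it was 0.28 when rat 67 was left out. The files hold 2 transcripts of Csad at chr7:141579241-141591096 on the minus strand of rn5. The transcript with 15 exons carried 89.7% to 96.4% of the Csad level in TPM (a level scaled by transcript length and library) in the AL rats and 94.98% to 97.6% in the HD rats, and the transcript with 13 exons carried the rest.

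Cdo1, the dioxygenase that oxidizes cysteine, was at 400, 288 and 345 CPM in the AL rats and at 389, 498 and 365 CPM in the HD rats. The groups overlapped, and rat 67 was the highest here too. The log2 fold change was 0.28 (SE 0.17, 95% interval -0.13 to 0.68, edgeR adjusted P = 0.638), and it was 0.13 without rat 67. Cdo1 has 5 exons at chr18:40348061-40362704 on the minus strand of rn5.

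Cbs, which joins homocysteine to serine, was at 213, 257 and 235 CPM in the AL rats and at 282, 283 and 271 CPM in the HD rats. The HD rats lay close together and above the AL rats. The log2 fold change was 0.25 (SE 0.11, 95% interval -0.02 to 0.51), with an edgeR adjusted P = 0.498. Cth, which releases cysteine from the product of Cbs, was at 890, 652 and 920 CPM in the AL rats and at 906, 898 and 753 CPM in the HD rats, and its groups overlapped with a log2 fold change of 0.05 (SE 0.17, 95% interval -0.34 to 0.45, edgeR adjusted P = 0.953). On rn5, Cbs has 16 exons at chr20:12549959-12574111 on the minus strand, and Cth has 12 exons at chr2:282366125-282392112 on the plus strand.

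In the methionine cycle the groups overlapped for each of the 3 members. Mat2a ranged from 755 to 950 CPM in the AL rats and from 790 to 1072 CPM in the HD rats (log2 fold change 0.17, SE 0.16, 95% interval -0.21 to 0.54, and 0.06 without HD rat 64). Ahcy, the hydrolase of S-adenosylhomocysteine, ranged from 505 to 586 CPM and from 569 to 796 CPM (log2 fold change 0.22, SE 0.16, 95% interval -0.16 to 0.60, and 0.05 without HD rat 69). The upper end of Ahcy in the HD group was rat 69, the rat with the lowest Mat2a, Gclc and Gclm of its group. Mtr, methionine synthase, was by far the lowest member, at 18.7 to 25.4 CPM in the AL rats and 22.3 to 23.5 CPM in the HD rats, with a log2 fold change of 0.09 (SE 0.15, 95% interval -0.26 to 0.43). The edgeR adjusted P was 0.778 for Mat2a, 0.699 for Ahcy and 0.888 for Mtr. All 3 genes are on the minus strand of rn5, Mat2a at chr4:165067990-165073559, Ahcy at chr3:156957240-156972464 and Mtr at chr17:67958246-68041430.

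**Figure D2:**
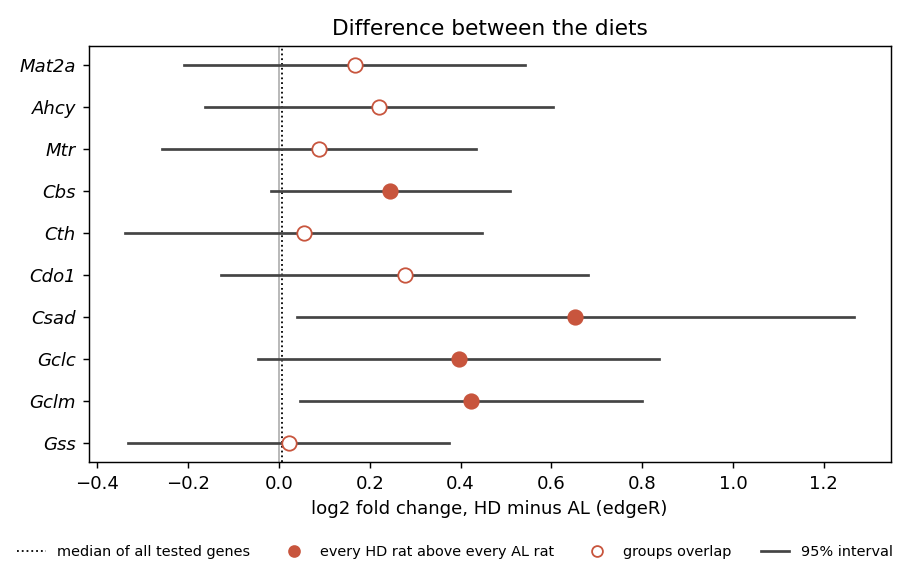
Log2 fold change of HD over AL (x axis) for the 10 members in pathway order, with 95% intervals from edgeR. Filled points mark the 4 members whose groups do not overlap in CPM, and the dotted line is the median of all tested genes (0.0067). All 10 points lie to the right of 0 with TMM scaling (Mtr, Cth and Gss are below 0 with library size alone), and the intervals of Csad and Gclm leave it out.

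Counted over the list, 0 of 10 members passed the threshold in edgeR, as did 0 of the 11553 genes tested (0%), of which 1224 had an unadjusted P below 0.05, and 0 of 10 passed it in DESeq2, against 1.58% of all genes. In edgeR, 2 members (Csad and Gclm) had an unadjusted P below 0.05 with a higher level in the HD group, against 4.66% of all genes. No member had one with a lower level, as 686 of the 11553 genes had. In DESeq2, 3 members (Csad, Gclc and Gclm) had an unadjusted P below 0.05 with a higher level in the HD group, against 4.7% of all genes. The HD rats lay below the AL rats without overlap for 0 members, a direction whose share over all genes was not computed. They lay above the AL rats without overlap for 4 members (Cbs, Csad, Gclc and Gclm), against 7.25% of all genes. In TPM, the same count was 2 (Csad and Gclm), against 4.25% of all genes. There, AL rat 71 was above the lowest HD rat for Gclc (5153 against 5132 TPM) and above all HD rats for Cbs (176 TPM). The list was chosen with earlier results of these data known, so these counts describe it and do not test it.

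The log2 fold changes of all 10 members were above 0 with TMM scaling, as were those of 51.3% of all tested genes, and with scaling by library size alone those of Mtr, Cth and Gss were below 0. Their median was 0.23, beside 0.0067 for all tested genes. The intervals of the members other than Csad and Gclm included 0, so for each of those 8 genes a difference could not be told from the spread between rats. A comparison of 3 rats with 3 cannot give a two-sided exact permutation P below 0.1.

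Levels per transcript length put the ligase at the top of the list. Gclc had a mean TPM of 5379 over the 6 rats, which ranked 14 among all tested genes (11 to 17 in single rats), and its reads were 0.889% to 1.35% of all counts. Gclm followed at 1838, Gss at 1139 and Mat2a at 1046 TPM. The pathway thus had its highest RNA levels at the step that uses cysteine for glutathione, and the pair Gss and Mat2a kept its order in 5 of 6 rats. Cth was at 752, Ahcy at 465, Cdo1 at 409 and Csad at 404 TPM, where Ahcy was above Cdo1 in 5 of 6 rats and Cdo1 above Csad in 4 of 6. Cbs was at 158 and Mtr at 7.70 TPM, and the neighbours not named here as crossing held their order in 6 of 6 rats.

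**Figure D3:**
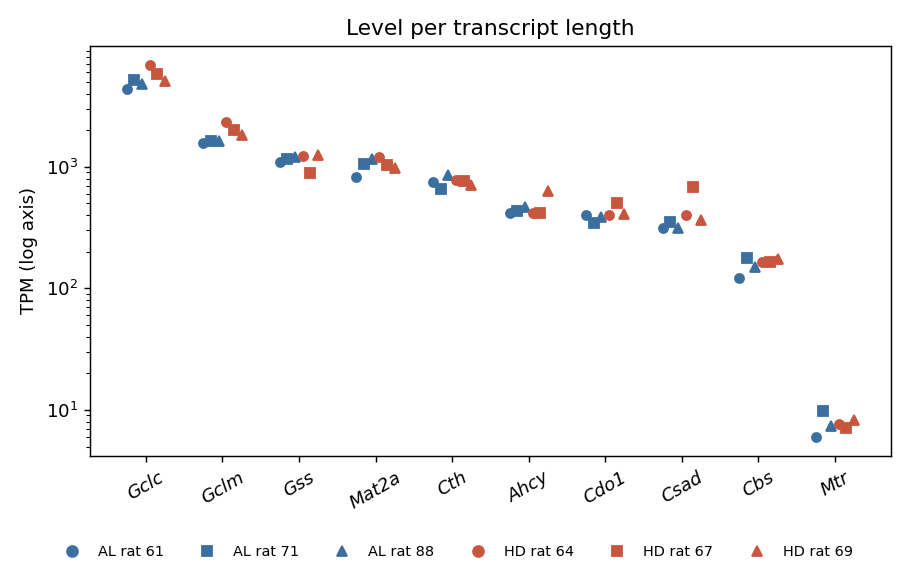
TPM (y axis, log scale) of the 10 members, ordered by their mean, in the 3 AL rats (blue) and the 3 HD rats (red). Gclc lies highest and Mtr lowest in every rat, and the order within a rat varies for Gss and Mat2a and for Ahcy, Cdo1 and Csad.

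Ratios within a rat do not depend on the scaling between libraries. The TPM of Gclc was 2.78, 3.17 and 2.94 times that of its partner Gclm in the AL rats and 2.97, 2.90 and 2.80 times in the HD rats. The 2 subunits thus kept nearly the same proportion in all 6 rats, and the log2 ratio differed by -0.04 between the groups (exact permutation P = 0.7, two-sided). The ratio of Cbs to Cth was 0.163, 0.269 and 0.174 in the AL rats and 0.212, 0.215 and 0.246 in the HD rats (difference 0.18, exact permutation P = 0.5).

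The groups overlapped for Cbs to Cth and also for both remaining pairs. Cdo1 to Csad was 1.29, 0.983 and 1.24 in the AL rats and 1.01, 0.739 and 1.13 in the HD rats (difference -0.30, exact permutation P = 0.3). Mat2a to Ahcy was 2.001, 2.42 and 2.497 in the AL rats and 2.90, 2.49 and 1.53 in the HD rats (difference -0.04, exact permutation P = 0.9). After adjustment over the 4 pairs every exact permutation P was 0.9.

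The ligase was then set against Gss, a pair chosen after the values were seen. The P values of these ratios are therefore no independent test, and they were not part of the adjustment over the 4 pairs. Gclm to Gss was 1.44, 1.40 and 1.36 in the AL rats and 1.92, 2.24 and 1.47 in the HD rats. All HD rats were above the AL rats, with a log2 difference of 0.40 and an exact permutation P = 0.1, the smallest that 3 against 3 allows. Gclc to Gss was 3.997, 4.44 and 3.998 in the AL rats and 5.70, 6.49 and 4.11 in the HD rats, where rat 69 fell below AL rat 71 (difference 0.37, exact permutation P = 0.2).

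**Figure D4:**
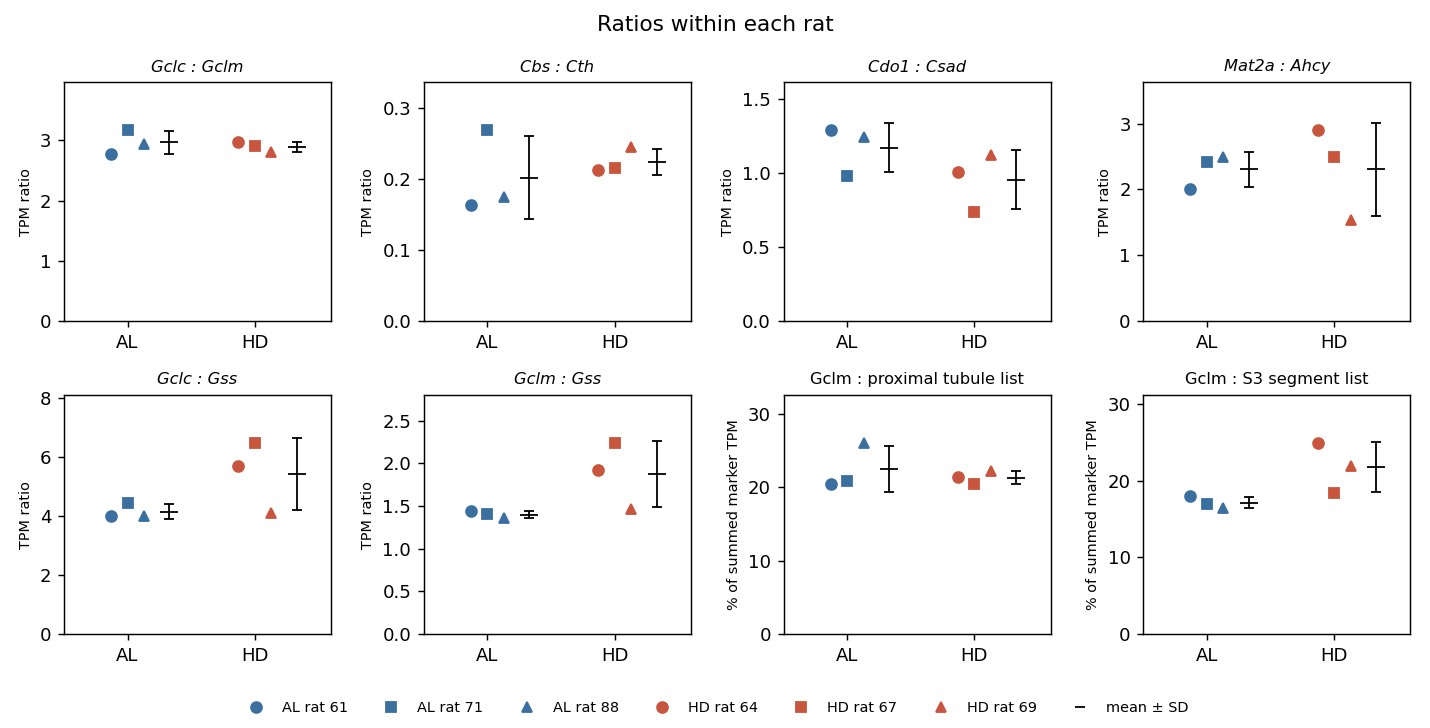
Ratios within each rat (y axes from 0), as TPM ratios of 6 enzyme pairs and as the TPM of Gclm in percent of the summed TPM of the proximal tubule markers and of the S3 segment markers, with the mean and SD of each group in black. Gclc to Gclm stays between 2.78 and 3.17 in all rats, Gclm to Gss and Gclm to the S3 list lie higher in the HD rats, and Gclm to the proximal tubule list overlaps.

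Over the 6 rats, the genes closest to Gclm, the member with the smallest P, were sought by the root-mean-square difference of log2 CPM centred on each gene's mean. The 3 closest of the other tested genes were Fgfrl1 (0.0528), Gde1 (0.0584) and Aldh6a1, a mitochondrial enzyme of valine breakdown (0.0629). Gclc lay at 0.0627, so that 2 genes outside the list were closer to Gclm than its own partner. The next member, Mat2a, lay at 0.181.

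Markers of several kidney cell types stood apart between the groups, and no marker of the lists used was at 0 in all 6 rats. The summed TPM of 10 proximal tubule markers was 6296 to 7779 in the AL rats and 8232 to 10950 in the HD rats, apart without overlap. Of the 9 that could be tested, 8 had a log2 fold change above 0. The sum of 6 markers of S3, the last segment of the proximal tubule, was 8814 to 9961 in the AL rats and 8392 to 10920 in the HD rats. The sums were also apart for 7 podocyte markers (21.7 to 56.9 against 101 to 234 TPM) and for the distal convoluted tubule (39.6 to 124 against 138 to 462 TPM), and 8 leukocyte markers summed to 368 to 984 in the AL rats and 199 to 473 in the HD rats. All 6 markers of the thick ascending limb had log2 fold changes below 0 (median -0.15), as had 5 of the 6 of the inner medulla (median -1.22), of which 4 had an unadjusted P below 0.05. Their summed levels overlapped between the groups, at 3610 to 4196 TPM in AL and 2485 to 4168 TPM in HD for the thick ascending limb and at 2221 to 3079 and 2444 to 3075 TPM for the inner medulla. The inner medulla sum mostly followed 1 gene, Aqp1, the only marker of that list above 0 (log2 fold change 0.22). Aqp1 was at 3791 to 3910 CPM in AL and 4266 to 4754 CPM in HD, and the next highest marker, Akr1b1, reached 390 CPM at most. Total counts ranged from 12499945 to 30466461 per rat.

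Divided by the proximal tubule sum of the same rat, all 10 members overlapped between the groups, with log2 differences from -0.47 for Gss to 0.10 for Csad. The TPM of Gclm was 20.4%, 20.9% and 26.1% of that sum in the AL rats and 21.4%, 20.4% and 22.3% in the HD rats. Divided by the S3 sum, Csad and Gclm stayed higher in all HD rats (log2 differences 0.50 and 0.33), and the other 8 members overlapped. The share of all genes without overlap was not computed for either divisor, so these counts have nothing to be set against. Both divisors were chosen after the values were seen, and the part of the cell makeup, cortical or medullary, in the differences of the members was not tested.

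Other genes of the pathway were followed in 3 lists. Of the further genes of the methionine cycle and homocysteine remethylation, 8 were tested (Mat1a was under the minimum count). None passed the threshold in edgeR or DESeq2, and none had an unadjusted P below 0.05 in edgeR, against 10.6% of all genes in either direction. Their median log2 fold change was 0.02, and Amd1, which opens polyamine synthesis from S-adenosylmethionine, was lower in all HD rats (153 to 169 CPM in AL, 140 to 143 CPM in HD, log2 fold change -0.20).

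Of 11 symbols for cysteine oxidation, taurine and sulfide handling, 9 were tested, with a median of 0.24 (Gadl1 was not analysed here, and Sqor counted under its older symbol Sqrdl). None passed in edgeR, and 2 passed in DESeq2, against 1.58% of all genes. Mpst, which moves sulfur from mercaptopyruvate, was at 119, 97.9 and 115 CPM in the AL rats and at 167, 150 and 171 CPM in the HD rats, a log2 fold change of 0.55 (SE 0.12, edgeR adjusted P = 0.368, DESeq2 adjusted P = 0.0133). Suox, sulfite oxidase, the last step from cysteine sulfur to sulfate, was at 101, 95.1 and 90.1 CPM in the AL rats and at 138, 129 and 128 CPM in the HD rats, a log2 fold change of 0.47 (SE 0.10, edgeR adjusted P = 0.368, DESeq2 adjusted P = 0.0128). In both genes the HD rats were close together and above every AL rat. Ado, a dioxygenase of cysteamine, was higher in all HD rats at a low level (1.88 to 2.30 CPM in AL, 2.95 to 4.24 CPM in HD).

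Of 16 genes of glutathione turnover and cystine supply, all 16 were tested, with a median of 0.08. None passed in edgeR and 1 passed in DESeq2, against 1.58% of all genes. That gene was Dpep1, a dipeptidase of the tubule that splits cysteinylglycine, here at a low level (1.31 to 8.37 TPM over the 6 rats). It was at 3.65, 7.43 and 5.43 CPM in the AL rats and 1.36, 1.55 and 2.62 CPM in the HD rats, a log2 fold change of -1.55 (SE 0.39, edgeR adjusted P = 0.379, DESeq2 adjusted P = 0.0376). All HD rats were below the AL rats, as they were for Ggt7 (1.85 to 3.05 CPM in AL, 1.099 to 1.66 CPM in HD). The share of all genes with the HD rats below was not computed. In CPM, the HD rats were above the AL rats for 2 of the 16 genes of this list, Gsr and Ggt1, against 7.25% of all genes. In TPM the groups overlapped for Gsr, with HD rat 69 at 182 and AL rat 71 at 185. Ggt1, the abundant gamma-glutamyltransferase of the tubule, which is also among the S3 markers and is named here after its values were seen, was at 2089 to 2257 CPM in AL and 2468 to 2587 CPM in HD (log2 fold change 0.24, SE 0.12, edgeR adjusted P = 0.556).

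Gsr, the reductase that recycles oxidized glutathione, was at 205, 196 and 194 CPM in the AL rats and at 322, 260 and 207 CPM in HD rats 64, 67 and 69. The HD rats stood in the same order as for Gclc and Gclm, with rat 69 at the AL level, and the log2 fold change was 0.41 (SE 0.17, edgeR adjusted P = 0.458), or 0.23 without rat 64. Chac1, which degrades glutathione in the cytosol, was at 0.556 to 1.11 CPM in AL and 0.934 to 4.54 CPM in HD, with overlap and a log2 fold change of 1.59 (SE 0.62, edgeR adjusted P = 0.437), or 0.79 without HD rat 69.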

How the data were processed

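The authors sequenced each rat as its own library (TruSeq v2, poly(A)-selected, single reads of 100 bases) and quantified transcripts with RSEM 1.1.15 on the UCSC gene definitions of rn5. The authors deposited an estimated count per transcript, which is not normalized, and TPM, which is scaled by transcript length and library. The kit does not mark strand, so antisense reads cannot be told apart. These were added up per gene, rounded to whole numbers and tested where 1 rat or more reached 30.

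The test was edgeR 4.0.16 in R 4.3.3 (quasi-likelihood, TMM, diet as the only factor) on all 11553 genes, with Benjamini-Hochberg adjustment. DESeq2 1.42.0 was an alternative, with its adjusted P values taken as given. Standard errors are the fold change over the root of the F statistic. Paired ratios used exact permutation over 10 divisions on the deposited TPM. No label says which samples share a batch or day. Python 3.11.15, pandas 2.3.3, numpy 2.4.6, scipy 1.17.1 and matplotlib 3.10.9 were used. Promoter sequences come from RefSeq for GRCr8 and matched 9 of 10 symbols, and rn5 coordinates come from the files.

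The members and the pathway and marker lists were chosen with earlier results of these data known. Pathway genes were named where the unadjusted P was below 0.05 or the groups did not overlap, at most 8 in order of P. The alternatives were the RLE normalization, library size alone, other filters on low counts, posterior mean counts and leaving out each rat. TPM for the overlap count, the ratios to Gss and the marker sums were added after seeing the data.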

Additional observations from a re-analysis of the deposited data

How the results depend on the processing

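Of the 120 fold changes of members under the alternatives, 112 kept their direction. With library size alone, the median of all genes moved to -0.07, and the log2 fold changes were -0.0016 for Mtr, -0.023 for Cth and -0.055 for Gss. In that setting 1 member had an unadjusted P below 0.05, against 10.1% of all genes in either direction. There 2 members did not overlap, and the share over all genes was not computed for that setting. TPM also left 2 without overlap, with the HD rats above, against 4.25% of all genes. Leaving out 1 rat at a time gave 0 to 3 members with an unadjusted P below 0.05 (0 without AL rat 88 or HD rat 67, 3 without HD rat 69, 1 without each other rat), while the share over all tested genes, either direction, ran from 5.26% without AL rat 88 to 15.6% without HD rat 69 (8.31% without HD rat 67), and log2 fold changes of -0.0029 to 0.22 for Mtr, -0.087 to 0.15 for Cth, -0.065 to 0.14 for Gss, 0.06 to 0.28 for Mat2a, 0.05 to 0.31 for Ahcy, 0.18 to 0.31 for Cbs, 0.13 to 0.40 for Cdo1, 0.28 to 0.85 for Csad, 0.26 to 0.54 for Gclc and 0.30 to 0.55 for Gclm. The cause was not tested. No member passed the adjusted threshold under any alternative, where the lowest adjusted P of a member was 0.205 to 0.927. The median standard error of a member's log2 fold change was 0.16, which sets the size that 3 rats a group can show. The groups held different rats, which the authors assigned to the diets at random, so no paired analysis was made.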
